A study of Mus musculus with 8 samples.

Results

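The genes described here form the erythropoietin receptor branch of JAK-STAT signalling in the leukaemic mouse spleen: the receptor gene Epor, the kinase gene Jak2, the transcription factor genes Stat5a and Stat5b, the feedback inhibitor genes Cish, Socs1, Socs2 and Socs3, and the target kinase gene Pim1. They were chosen by symbol through the GENCODE M21 annotation, which gave 9 of the 54018 rows of the deposited table. All 9 were at 1 FPKM or more in at least 4 of the 8 libraries and belong to the 12890 rows tested, and none was listed at 0 in any library. FPKM is fragments per kilobase of transcript scaled to the library total.

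RNA was measured in splenic mononuclear cells of leukaemic C57BL/6 mice in 2 groups. The knockdown group (Kdm1aKD;Eµ-TCL1A, replicates 1, 2, 4 and 5) carried a doxycycline-inducible construct against the histone demethylase gene Kdm1a together with the leukaemia transgene, and leukaemic mice were given doxycycline. The control group (Eµ-TCL1A, replicates 1 to 4) carried the transgene alone, which drives the human TCL1A oncogene in B cells and gives a disease like chronic lymphocytic leukaemia. The labels state neither whether control mice had doxycycline, nor age, nor which library came from which animal, so a p-value here reflects only how far these libraries vary, which may be technical. The question is how lowering Kdm1a relates to transcript levels in the diseased spleen.

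Erythropoietin binds its receptor on red cell precursors, and the receptor, which has no enzyme activity of its own, works through JAK2 bound to its cytoplasmic part. JAK2 phosphorylates the receptor and STAT5A and STAT5B, which then enter the nucleus and switch on survival genes together with genes of their own inhibitors, CISH and the SOCS proteins. In mice the adult spleen is a site of red cell formation under stress, while JAK2, STAT5 and the SOCS genes also serve many other cytokine receptors in lymphocytes and myeloid cells.

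Kdm1a itself averaged 18.1 ± 2.96 FPKM in knockdown libraries and 25.1 ± 4.19 FPKM in control libraries (SD, n = 4 each), so transcript remained at 71.9% of the control mean. Library depth, worked out from whole-fragment steps among low genes, was 39000000 to 45800000 fragments. B cell markers, the labelled leukaemia's cell type, summed to 1338 to 3513 FPKM over 12 genes in knockdown libraries and to 3765 to 4392 FPKM in control libraries, with none at 0. The mean log2(FPKM + 1) of the same genes overlapped between the groups, at 5.70 to 7.20 in knockdown libraries and 6.94 to 7.09 in control libraries. Knockdown replicate 4 stood apart, with 30211 FPKM summed over 19 erythroid markers against 972 to 2667 in the other knockdown libraries and 3160 to 8417 in the control libraries. Control replicate 4 differed from the other controls too, with 572660 FPKM summed over all rows against 702051 to 762888. Xist, of the inactive X chromosome, was at 94.9 FPKM or more in the 4 knockdown libraries and at 110 FPKM in control replicate 1, but at 0.128 FPKM or less in the remaining controls, so a sex difference and the knockdown cannot be told apart over most libraries. In bulk RNA, fewer cells of a type and less RNA per cell cannot be told apart either.

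Promoter sequence is shown for 3 genes in which letters of a motif tied to this pathway or to red cell genes were found. RefSeq windows on GRCm38.p6, from 250 bases before to 50 after an annotated start, were matched for 8 of the 9 genes (11 windows, with 2 starts each for Stat5a, Stat5b and Pim1), all but Socs2. Both strands were searched for TTCNNNGAA, the palindromic STAT5 core. They were also searched for the GATA factor motif AGATAA. The last motif searched, that of SP1, was GGGCGG. The Epor stretch is the 250 bases before the start (chr9:21963577-21963826, minus strand), with the matches to AGATAA and GGGCGG in capitals, both read on the opposite strand and not overlapping. The Cish stretch is 30 bases at the start (chr9:107296654-107296683, plus strand; 5′ UTR of the longest GENCODE transcript), and the Socs3 stretch lies upstream (chr11:117969452-117969566, minus strand; within the span of a longer non-coding transcript), both with TTCNNNGAA in capitals.
Epor: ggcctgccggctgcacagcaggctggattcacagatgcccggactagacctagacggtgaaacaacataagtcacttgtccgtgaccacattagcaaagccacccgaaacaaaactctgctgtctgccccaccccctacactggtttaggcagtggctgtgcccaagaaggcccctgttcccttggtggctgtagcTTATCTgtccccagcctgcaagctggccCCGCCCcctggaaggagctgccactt
Cish: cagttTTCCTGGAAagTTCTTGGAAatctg
Socs3: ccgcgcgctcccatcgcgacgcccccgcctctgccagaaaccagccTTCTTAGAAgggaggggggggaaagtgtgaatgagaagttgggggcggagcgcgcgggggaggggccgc

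Counting from the annotated start, the AGATAA match of Epor begins at position -54 and its GGGCGG match at -26. Cish has TTCCTGGAA from position 1 and TTCTTGGAA from position 12, and Socs3 has TTCTTAGAA from position -154. Of 32851 promoter windows in the RefSeq table, 8.30% hold TTCNNNGAA, 11.2% hold AGATAA and 35.7% hold GGGCGG. Among the 11 windows, TTCNNNGAA was found only in those of Cish and Socs3 and AGATAA only in that of Epor. A match describes letters in this window, not binding.

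No gene of the 9 passed limma's Benjamini-Hochberg adjusted p of 0.05 over all 12890 genes, where 1.74% of genes did (1.63% higher and 0.109% lower in knockdown libraries). All 9 log2 changes were positive, with a median of 0.68 beside 0.13 over all genes tested, of which 63.7% were positive. At an unadjusted p under 0.05 there were 5 of the 9, all higher, beside 15.8% of all genes. In 4 of the 9, Epor, Stat5a, Socs2 and Pim1, every knockdown library lay above every control library, beside 11.2% of all genes, and in none of the 9 did every knockdown library lie below, beside 1.9% of all genes. The 4 were 2 after median-of-ratios scaling (Epor and Stat5a) and 3 after quantile normalization (Epor, Stat5a and Socs2). The 11.2% belongs to the values without further scaling, and the share of all genes was not computed after these 2 scalings. These scalings put the median of all genes at -0.01 and -0.03, and Socs1 then had a negative log2 change.

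**Figure D1:**
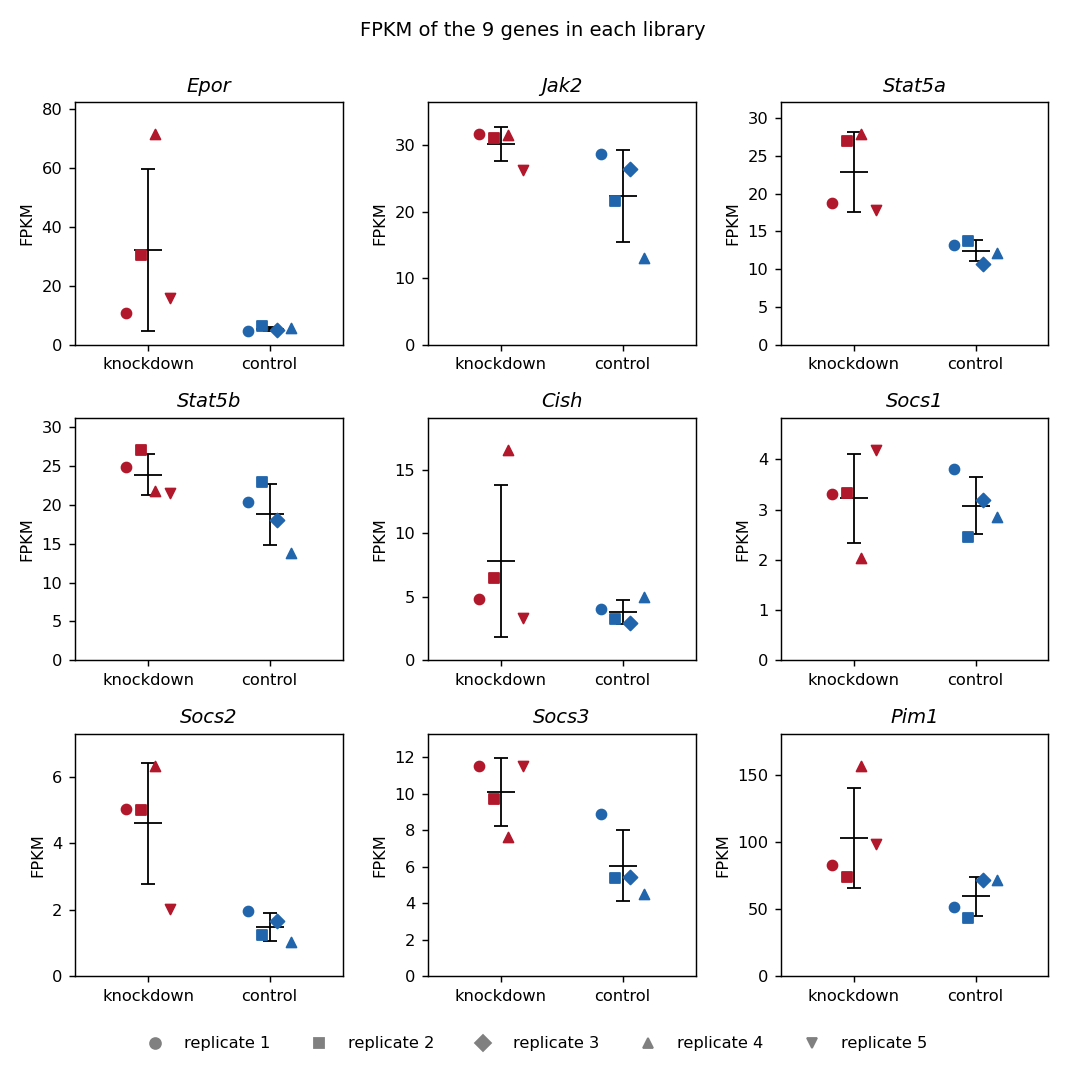
FPKM (vertical axes, each from 0) of the 9 genes in the knockdown and control libraries, 1 symbol per library by replicate number; black bars are the mean and SD (n = 4 each). Epor, Stat5a, Socs2 and Pim1 do not overlap between the groups, and Epor spreads from 10.9 to 71.6 FPKM within the knockdown libraries.

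The receptor gene had the largest difference of the 9. Epor (ENSMUSG00000006235, GRCm38 chromosome 9 from 21958897 to 21963506, minus strand) gave 10.9, 30.6, 71.6 and 15.8 FPKM in knockdown replicates 1, 2, 4 and 5, against 4.76, 6.30, 5.11 and 5.52 FPKM in control replicates 1 to 4. The lowest knockdown library lay above the highest control library, and knockdown values spanned 6.60-fold where control values spanned 1.32-fold. The means were 32.2 ± 27.6 FPKM and 5.42 ± 0.664 FPKM (SD, n = 4 each), a ratio of 5.94. The log2 change of FPKM + 1 was 2.02 ± 0.48 (SE; 95% interval 0.95 to 3.10), larger than that of 99.1% of all genes, with an adjusted p of 0.0732 in limma. A two-sided exact permutation test over 70 assignments gave p = 0.0286, the smallest it can give. This p follows from the lack of overlap, which 13.1% of all genes tested share in either direction.

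Without knockdown replicate 4 the log2 change of Epor was 1.53 (limma adjusted p = 0.0678), and without knockdown replicate 1 it was 2.40 (adjusted p = 0.0345). Over the 8 libraries left out in turn the adjusted p ran from 0.0345 to 0.265, the highest without knockdown replicate 2. In rank among the genes tested, Epor moved up to percentile 74.3 of mean level in knockdown libraries, against 30.6 in control libraries. That knockdown mean includes replicate 4 at 71.6 FPKM, while replicates 1 and 5 were at 10.9 and 15.8 FPKM. The ligand gene Epo, made mainly in kidney, was listed at 0 in all 8 libraries.

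Epor was also set beside 19 erythroid marker genes in the same library, a list without Epor itself. The mean log2(FPKM + 1) of that list was 4.26, 5.91, 8.28 and 4.67 in knockdown replicates 1, 2, 4 and 5, against 4.76, 5.60, 5.29 and 5.66 in control replicates 1 to 4. The groups overlapped, with 2 knockdown libraries below every control and 2 above. Epor minus that level was -0.69, -0.92, -2.10 and -0.60 in the knockdown libraries and -2.24, -2.73, -2.68 and -2.95 in the control libraries. This difference was higher in each knockdown library, by 1.57 on the log2 scale between group means (two-sided exact permutation p = 0.0286, the smallest possible with 70 assignments). It depends on which genes form the list. Klf1 and Gata1 in it had log2 changes of 2.05 and 2.71 beside 2.02 for Epor, whereas the globin gene Hbb-bs had -1.28. Relative to Klf1 or Gata1 alone, Epor was not higher on average. No knockdown library had an erythroid level within the control range, so the libraries are not matched for it, and the part of erythroid content in the Epor values was not tested. The difference was 1.91 without knockdown replicate 4. Without any 1 of the control libraries the exact permutation p was 0.0571.

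**Figure D2:**
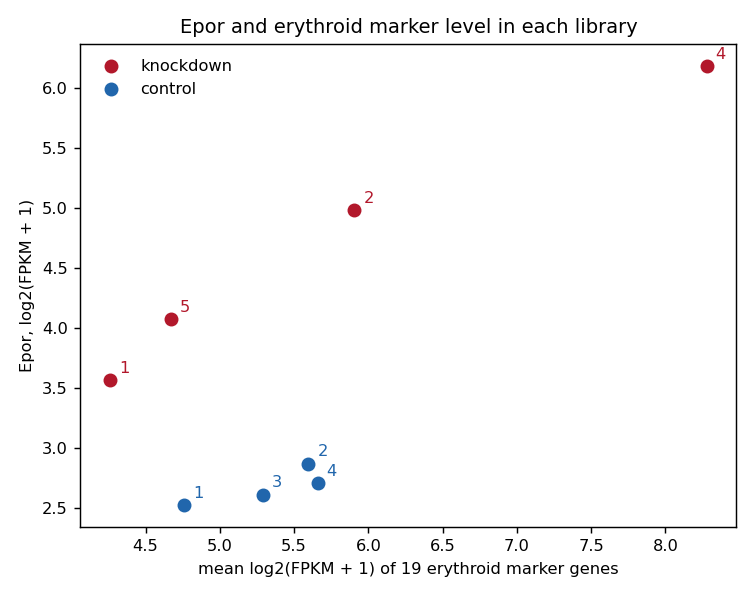
Epor, log2(FPKM + 1), against the mean log2(FPKM + 1) of 19 erythroid marker genes, 1 point per library with its replicate number. Knockdown replicates 1 and 5 have a lower erythroid level than any control library and a higher Epor level.

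The erythroid list did not move as a block. Of its 19 genes, 13 had a positive log2 change, beside 63.7% of all genes tested. In limma 1 rose past the threshold and none fell, beside 1.63% higher and 0.109% lower over all genes. Gata1, the transcription factor gene needed for red cell development, rose (58.2 against 6.14 FPKM, log2 change 2.71, limma adjusted p = 0.0254). Leaving out knockdown replicate 2 ended this call (adjusted p = 0.134), as did leaving out any 1 of control replicates 1 to 4 (0.0617, 0.0765, 0.0813 and 0.0963). The 6 negative log2 changes were those of the haem synthesis enzyme gene Alas2, the anion exchanger gene Slc4a1 and the globin genes Hba-a1, Hba-a2, Hbb-bs and Hbb-bt. Hbb-bs had 319, 717, 15844 and 629 FPKM in knockdown replicates 1, 2, 4 and 5, against 1527, 4752, 4806 and 2298 FPKM in control replicates 1 to 4. Thus 3 knockdown libraries were below all controls for this globin gene while all 4 were above them for Epor. The globin genes are near-identical pairs, so the split of reads within a pair is uncertain.

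By likeness of profile over the 8 libraries, the genes nearest to Epor among 8756 genes of at least 5 FPKM were Klf1, Tal1, Add2, Sh3tc2 and Abcb4. The measure was the root mean square difference of centred log2(FPKM + 1) values, and was 0.14, 0.14, 0.14, 0.17 and 0.21 in that order, where the profile of Epor itself varied by 1.24. Klf1 and Tal1 encode red cell transcription factors, and Add2 encodes a subunit of the membrane skeleton protein adducin. Klf1 had 26.6, 92.9, 215 and 50.04 FPKM in knockdown replicates 1, 2, 4 and 5, against 14.6, 20.6, 14.0 and 18.2 FPKM in control replicates 1 to 4. Tal1 averaged 44.5 FPKM in knockdown libraries and 7.73 FPKM in control libraries. All 5 were highest in knockdown replicate 4 and lowest in a control library.

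**Figure D3:**
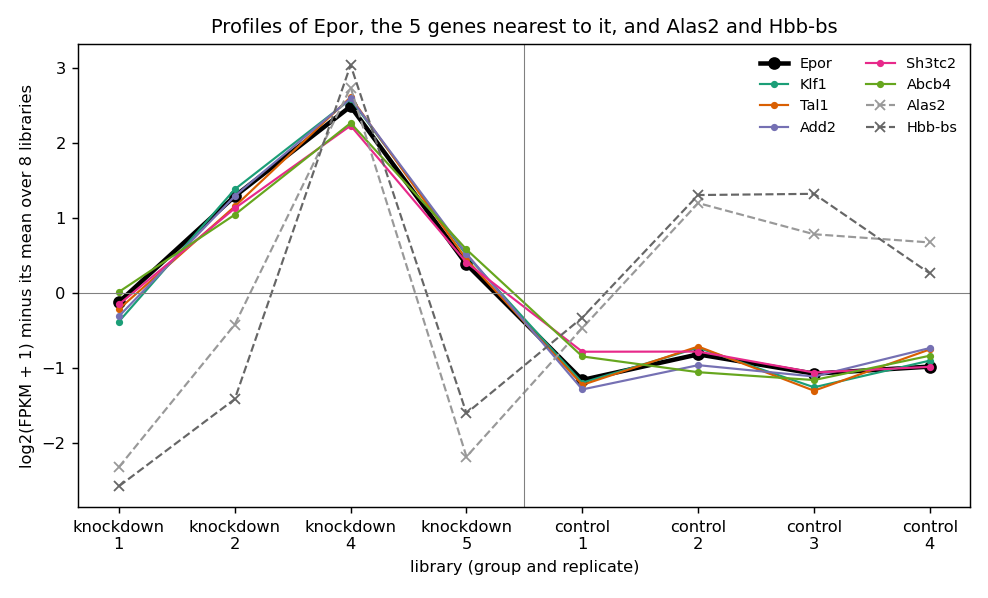
Log2(FPKM + 1) minus its mean over the 8 libraries (vertical axis) for Epor, the 5 genes nearest to it (solid lines) and Alas2 and Hbb-bs (dashed), by library. The solid lines are lowest in the control libraries, whereas the dashed lines are lowest in knockdown replicates 1 and 5.

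Jak2, the kinase gene (ENSMUSG00000024789, chromosome 19, 29251828 to 29313080, plus strand), had 31.7, 31.0, 31.5 and 26.3 FPKM in knockdown replicates 1, 2, 4 and 5, against 28.6, 21.5, 26.3 and 13.0 FPKM in control replicates 1 to 4. Control replicate 4 was low, and the groups overlapped. The log2 change was 0.47 ± 0.24 (SE; 95% interval -0.07 to 1.0; limma adjusted p = 0.314; exact permutation p = 0.0857). It was 0.24 without control replicate 4, and 0.07 with control replicate 1 as the only control, an alternative chosen after seeing the data. The Epor to Jak2 ratio of FPKM in a library was 0.343, 0.986, 2.27 and 0.602 in knockdown replicates 1, 2, 4 and 5, against 0.166, 0.293, 0.194 and 0.424 in control replicates 1 to 4. Receptor transcript thus outnumbered kinase transcript, per length, in 1 library, knockdown replicate 4.

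The STAT5 genes lie next to each other on chromosome 11 and encode closely related proteins. Stat5a (ENSMUSG00000004043, 100859351 to 100885169, plus strand) had 18.8, 27.0, 27.9 and 17.8 FPKM in knockdown replicates 1, 2, 4 and 5, against 13.2, 13.7, 10.7 and 12.2 FPKM in control replicates 1 to 4. The groups did not overlap, with a log2 change of 0.80 ± 0.20 (SE; 95% interval 0.37 to 1.24; limma adjusted p = 0.0792; exact permutation p = 0.0286, the smallest possible). Stat5b (ENSMUSG00000020919, 100780731 to 100850724, minus strand) had 24.9, 27.0, 21.8 and 21.5 FPKM in knockdown replicates 1, 2, 4 and 5, against 20.3, 22.9, 18.0 and 13.7 FPKM in control replicates 1 to 4.

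For Stat5b the groups overlapped, and the log2 change was 0.35 ± 0.19 (SE; 95% interval -0.07 to 0.77; limma adjusted p = 0.336; exact permutation p = 0.0857). It was 0.21 without control replicate 4, 0.195 after median-of-ratios scaling and 0.18 after quantile normalization. Stat5a was at 0.965 ± 0.234 of the Stat5b level in knockdown libraries and at 0.683 ± 0.137 in control libraries (SD, n = 4 each). This ratio within a library does not depend on scaling, and its groups overlapped through control replicate 4, at 0.886. Reads from stretches that both genes share may be split between them, and the span of Stat5a overlaps that of Stat3 on the other strand.

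**Figure D4:**
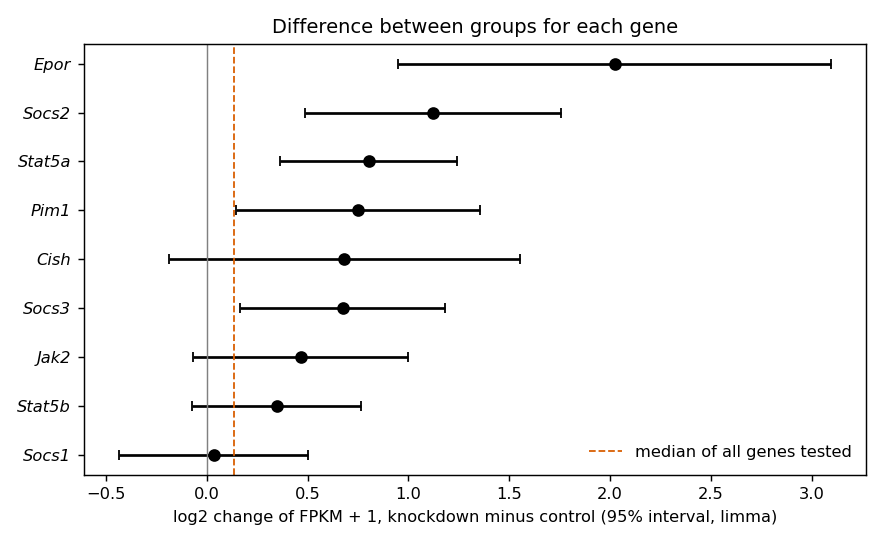
Log2 change of FPKM + 1, knockdown minus control, for each of the 9 genes (points) with 95% intervals from limma; the dashed line is the median of all genes tested, 0.13. The intervals of Epor, Socs2, Stat5a, Pim1 and Socs3 lie above 0, and none of the 9 passed the adjusted threshold.

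Among the feedback inhibitors, Socs2 differed most. The SOCS proteins and CISH bind phosphorylated receptors or JAKs through an SH2 domain and damp the signal, and SOCS2 is best known in mice for limiting growth hormone signalling. Socs2 (ENSMUSG00000020027, chromosome 10, 95385362 to 95417180, minus strand) had 5.03, 4.98, 6.33 and 2.02 FPKM in knockdown replicates 1, 2, 4 and 5, against 1.96, 1.25, 1.65 and 1.02 FPKM in control replicates 1 to 4. The groups did not overlap, but knockdown replicate 5 lay close above control replicate 1. The means gave a ratio of 3.13 and the log2 change was 1.12 ± 0.28 (SE; 95% interval 0.49 to 1.76; limma adjusted p = 0.0855; exact permutation p = 0.0286, the smallest possible). Without knockdown replicate 5 the log2 change of Socs2 was 1.39, with a limma adjusted p of 0.0268. Leaving out any other library gave an adjusted p above that of the whole set, up to 0.291 without knockdown replicate 2.

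The 5 genes nearest in profile to Socs2 were Tbc1d8, Mindy1, Ifitm1, Tnfrsf1a and Ppp1r9b, with root mean square differences of 0.11 to 0.22 on the log2 scale over 8 libraries. Ifitm1 encodes an interferon-inducible membrane protein and Tnfrsf1a a TNF receptor. None of them is among the 5 nearest to Epor. Of the 10 genes named by likeness, Abcb4 (limma adjusted p = 0.0497) and Mindy1 (0.0472) were past the threshold. Their adjusted p reached 0.197 and 0.212 without knockdown replicate 2, and was above 0.05 without any 1 of the control libraries.

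Cish, an early STAT5 target and inhibitor (ENSMUSG00000032578, chromosome 9, 107296026 to 107302784, plus strand), had 4.80, 6.50, 16.6 and 3.36 FPKM in knockdown replicates 1, 2, 4 and 5, against 4.02, 3.24, 2.92 and 5.02 FPKM in control replicates 1 to 4. Knockdown replicate 4 was far above the other 7 libraries, which overlapped. The log2 change was 0.68 ± 0.39 (SE; 95% interval -0.19 to 1.55; limma adjusted p = 0.358; exact permutation p = 0.171), and 0.28 without knockdown replicate 4. The span of Cish overlaps 2 predicted genes on the other strand, Gm17040 and Gm17041, so without strand its reads may include theirs.

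Socs3, induced by STAT3 and STAT5 signals (ENSMUSG00000053113, chromosome 11, 117966079 to 117970047, minus strand), had 11.5, 9.73, 7.62 and 11.6 FPKM in knockdown replicates 1, 2, 4 and 5, against 8.92, 5.40, 5.43 and 4.49 FPKM in control replicates 1 to 4. A single pair overlapped, knockdown replicate 4 below control replicate 1. The log2 change was 0.67 ± 0.23 (SE; 95% interval 0.17 to 1.18; limma adjusted p = 0.165; exact permutation p = 0.0571). Measured from control replicate 1 alone, the 1 control library with Xist, it was 0.15, an alternative chosen after seeing the data.

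Socs1, an inhibitor of interferon signalling above all (ENSMUSG00000038037, chromosome 16, 10782240 to 10785536, minus strand), had 3.32, 3.33, 2.04 and 4.19 FPKM in knockdown replicates 1, 2, 4 and 5, against 3.81, 2.45, 3.20 and 2.85 FPKM in control replicates 1 to 4. The groups lay within each other, with a log2 change of 0.03 ± 0.21 (SE; 95% interval -0.43 to 0.50; limma adjusted p = 0.943; exact permutation p = 0.886). The Socs3 to Socs1 ratio within a library was 3.48, 2.92, 3.73 and 2.76 in knockdown replicates 1, 2, 4 and 5, against 2.34, 2.20, 1.70 and 1.57 in control replicates 1 to 4. That ratio, which is free of library scaling, did not overlap between the groups.

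Pim1, a serine-threonine kinase gene induced by STAT5 and other STATs that promotes survival, was the most abundant of the 9 per length (ENSMUSG00000024014, chromosome 17, 29490753 to 29496112, plus strand). It had 82.7, 74.1, 157 and 98.7 FPKM in knockdown replicates 1, 2, 4 and 5, against 51.8, 43.3, 72.0 and 71.4 FPKM in control replicates 1 to 4. The groups were separate by a narrow margin, knockdown replicate 2 above control replicate 3. The log2 change was 0.75 ± 0.27 (SE; 95% interval 0.14 to 1.36; limma adjusted p = 0.186; exact permutation p = 0.0286, the smallest possible), and 0.53 without knockdown replicate 4. Pim1 overlaps the predicted gene Gm26885 on the other strand.

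The order of mean levels in knockdown libraries was Pim1, Epor, Jak2, Stat5b, Stat5a, Socs3, Cish, Socs2 and Socs1, while in control libraries Epor stood sixth, after Socs3, and Socs2 last. In knockdown libraries the ranges of neighbours in this order overlapped except between Pim1 and Epor and between Stat5a and Socs3. Knockdown replicate 4 was the highest of all 8 libraries for 5 genes (Epor, Stat5a, Cish, Socs2 and Pim1) and the lowest for Socs1. Control replicate 4 was the lowest for 4 (Jak2, Stat5b, Socs2 and Socs3). Within the knockdown group, replicate 5 was lowest for 5 of the 9.

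Other cell types' markers moved beside these values. Summed megakaryocyte markers (11 genes) were 22.6 to 68.3 FPKM in knockdown libraries and 7.48 to 16.8 FPKM in control libraries. Ppbp and Tubb1 of that list went the other way, with lower means in knockdown libraries. The sums of 8 stem and progenitor markers were 19.4 to 47.0 FPKM and 6.75 to 14.0 FPKM, and those of 14 monocyte and macrophage markers 510 to 982 FPKM and 154 to 381 FPKM, knockdown first in each. The share of Lyz2, the lysozyme gene, in the monocyte sum differed by library. It gave 409 of 562 FPKM in knockdown replicate 1, 135 of 553 FPKM in knockdown replicate 5 and 78.3 of 381 FPKM in control replicate 2. The mean log2(FPKM + 1) of that list overlapped, at 3.60 to 4.85 in knockdown libraries and 2.83 to 3.79 in control libraries. The part of these cells in the values of Epor, Stat5a, Socs2 and Pim1 was not tested. None of these markers was at 0 in any library. Summed neutrophil markers (14 genes) overlapped, 33.2 to 254 FPKM in knockdown libraries and 72.5 to 489 FPKM in control libraries, with Ly6g at 0 in knockdown replicate 2. T cell and NK markers (13 genes) overlapped too, at 276 to 646 FPKM in knockdown libraries and 181 to 563 FPKM in control libraries.

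The wider pathway was described through 5 further lists. Of 18 measured cytokine receptor chains that signal through JAK2 or STAT5, 1 rose and none fell, beside 1.63% higher and 0.109% lower over all genes tested, with a median log2 change of 0.17. The rise was that of Csf2rb2, the mouse gene of the interleukin 3 specific beta chain, with 19.6, 17.8, 64.4 and 11.5 FPKM in knockdown replicates 1, 2, 4 and 5, against 1.81, 1.41, 1.70 and 1.69 FPKM in control replicates 1 to 4. Its means differed 17.2-fold and its log2 change was 3.17 ± 0.43 (SE; limma adjusted p = 0.0132). The call of Csf2rb2 was lost without knockdown replicate 2 (adjusted p = 0.0805), control replicate 3 (0.0522) or control replicate 4 (0.0745).

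Csf2rb, which encodes the common beta chain shared by the interleukin 3, interleukin 5 and GM-CSF receptors, averaged 92.7 FPKM in knockdown and 55.5 FPKM in control libraries, a log2 change of 0.67 (limma adjusted p = 0.244). The sequences of Csf2rb and Csf2rb2 are close, so reads may be split between them. Ifngr1, an interferon gamma receptor gene, had 64.6 against 40.2 FPKM (adjusted p = 0.255).

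Of 17 measured further STAT5 targets, 1 rose and none fell, beside the same 1.63% and 0.109% of all genes, with a median log2 change of 0.18. Spred1, an inhibitor of RAS-ERK signalling, had 2.85, 4.16, 4.81 and 2.61 FPKM in knockdown replicates 1, 2, 4 and 5, against 1.39, 0.754, 0.738 and 0.503 FPKM in control replicates 1 to 4 (log2 change 1.31 ± 0.22 SE; limma adjusted p = 0.0254). Leaving out knockdown replicate 2 or 4 ended this call (adjusted p = 0.141 and 0.0566), as did leaving out control replicate 2, 3 or 4 (0.0859, 0.0815 and 0.0947). Osm, the oncostatin M gene, had 8.43 against 4.72 FPKM without overlap (adjusted p = 0.131), and Tfrc, the transferrin receptor gene, had 104 against 34.5 FPKM (adjusted p = 0.257). Erfe, the erythroferrone gene that erythropoietin induces in red cell precursors, was under the filter and named after its values were seen. It had 0.735, 3.77, 18.1 and 1.98 FPKM in knockdown replicates 1, 2, 4 and 5, against 0.161, 0.172, 0.294 and 0.342 FPKM in control replicates 1 to 4, without overlap.

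None of 18 adaptors and phosphatases of the receptor passed the threshold in limma, and their median log2 change was -0.10, with 4 at an unadjusted p under 0.05 in either direction, beside 19.2% of all genes. Gab1 and Gab2 encode docking proteins that link the receptor to PI3 kinase. Gab1 had 3.25 against 0.352 FPKM (limma adjusted p = 0.076), and Gab2 had 3.10 against 1.01 FPKM without overlap (limma adjusted p = 0.0727). Gab1 was under 1 FPKM in every control library and passed the filter only through the knockdown libraries. Its groups therefore could not overlap, and its p-value follows that selection. Plcg2, a phospholipase gene of B cell receptor signalling, had 56.7 against 105 FPKM, lower in all 4 knockdown libraries (adjusted p = 0.172).

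None of 8 further JAK and STAT genes passed either, with a median log2 change of 0.05. At an unadjusted p under 0.05 in limma, beside 19.2% of all genes in either direction, there was 1 of the 8. This was Stat2, a factor of type I interferon signalling, at 25.5 against 16.0 FPKM (limma adjusted p = 0.151). Jak3 had 16.6 against 22.3 FPKM (limma adjusted p = 0.460). Among 16 further negative regulators none passed in limma, with a median of -0.01. There were 2 at an unadjusted p under 0.05, beside the same 19.2% of all genes. Usp18, an interferon-induced inhibitor, had 7.90 against 2.99 FPKM (adjusted p = 0.124), Dusp1 32.0 against 16.6 FPKM (adjusted p = 0.224) and Stam 13.4 against 9.93 FPKM (adjusted p = 0.325).

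**Figure D5:**
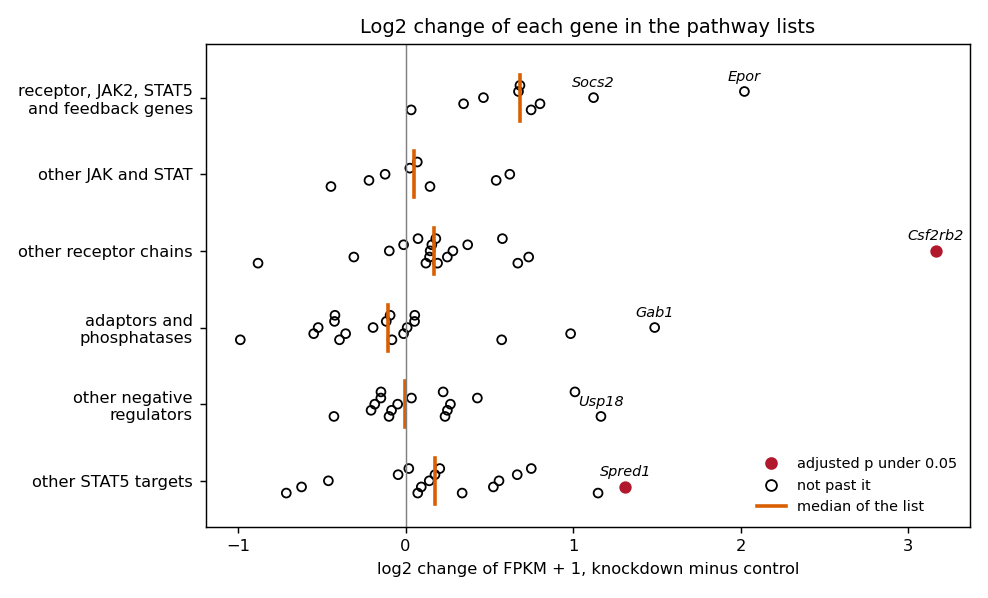
Log2 change of FPKM + 1, knockdown minus control (horizontal axis), of every tested gene in 6 lists; filled points passed an adjusted p of 0.05 in limma and orange bars are list medians. Csf2rb2 and Spred1 are the filled points, and the list of the 9 genes has a median of 0.68 where the other medians lie between -0.10 and 0.18.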

How the data were processed

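Polyadenylated RNA of splenic mononuclear cells was read on an Illumina NovaSeq, as the labels' protocols state. The authors deposited FPKM values in 1 table of 54018 rows, made with CASAVA and Cufflinks per the submitters' processing notes. The aligner, genome build, gene models and strand handling were not stated in the labels or the table. FPKM moves with a library's most abundant transcripts. Identifiers were matched to GENCODE M21 (GRCm38), which named 53865. Of 197 list symbols 2 (Irf8 and Ahsp) were not analysed here.

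Values were compared as log2(FPKM + 1), knockdown minus control (n = 4 each), for rows with at least 1 FPKM in at least 4 libraries, with limma 3.58.1 (mean-variance trend, R 4.3.3) and Benjamini-Hochberg adjustment over 12890 genes. Fold changes on this scale understate those of low genes. The fit was tested on simulated data. Single values had two-sided exact permutation tests over 70 assignments, unadjusted, 9 for the genes and 1 for Epor relative to erythroid markers. Depth came from genes with a single transcript of at least 1500 bases, where 98.8% to 99.4% of low values lay within 5% of whole multiples of 1 fragment. Of the table, 28 genes had a 0 beside a median above 10 FPKM, a sign of failed estimates.

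The 9 genes and the lists were chosen with earlier results of these data known. Named were the 9, Kdm1a, in each pathway list the genes past the threshold or the 3 with the smallest p, and the 5 nearest in profile to Epor and to Socs2 (predicted genes, receptor segments and sex markers left out). A gene that this rule names is not reported here. Alternatives changed pseudocount, filter, scaling, test, threshold, libraries, a replicate block and an erythroid covariate. Plots were drawn with matplotlib 3.10.9 under Python 3.11.15.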

Additional observations from a re-analysis of the deposited data

Results flagged for a closer look

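In 44 groups of 4 libraries examined (the 9 genes, Kdm1a, list levels, ratios and Epor relative to erythroid markers), 2 held a library far from the other 3, and chance alone gives about 1 in 20. Jak2 in the knockdown group was 1, with replicate 5 at 26.3 FPKM below 31.0 to 31.7 FPKM in the other 3, a gap of 0.884 of the group's range. The level of stem and progenitor markers in the knockdown group was the other, with replicate 5 at 2.26 and the remaining libraries at 3.20 to 3.37 on the log2 scale, a gap of 0.850 of the range. Knockdown replicate 5 was also the lowest of its group for Socs2 and Cish.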

How the results depend on the processing

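With 4 libraries a group, counts of calls depended strongly on the setting, and the cause was not tested. The 224 genes past the threshold became 24 with a pseudocount of 5, 2 with no filter, 126 after quantile normalization, 71 where genes had to average 5 FPKM, 761 with array weights, 622 with the erythroid level as covariate, 60 without replicate 4 of both groups and 514 at an adjusted p of 0.1. Leaving out 1 library gave 6 (without knockdown replicate 2) to 216 genes, with 7, 28, 39, 85 and 106 without control replicates 4, 3, 2 and 1 and knockdown replicate 4. Of the 9 genes, 0 passed in the reported fit, 3 with array weights (Epor, Stat5a and Socs2), 2 with the erythroid covariate (Epor and Stat5a), 3 at an adjusted p of 0.1, and 0 to 1 with 1 library left out. With 4 against 4 libraries, an unadjusted exact permutation p under 0.05 arises only where the groups do not overlap. That held for 4 of the 9 genes in the reported scaling, beside 13.1% of all genes tested in either direction. The 4 became 2 after median-of-ratios scaling and 0 without replicate 4 of both groups, where 3 against 3 cannot go below 0.1. With 1 library left out there were 0 to 4, and the share of all genes was not computed for these alternatives. Socs1 reversed, to -0.085 with median-of-ratios scaling, -0.15 after quantile normalization and -0.22 with control replicate 1 as the only control. That last alternative was chosen after seeing the data. With 1 library left out, Socs1 ranged from -0.074 to 0.18. From control replicate 1 alone, Epor was at 2.17, Stat5a at 0.72, Stat5b at 0.21, Cish at 0.60, Socs2 at 0.85 and Pim1 at 0.92. Jak2 and Socs3 were lower there, at 0.07 and 0.15. Epor relative to erythroid markers was 1.197 with a pseudocount of 5 (exact permutation p = 0.0571), 1.81 without replicate 4 of both groups (p = 0.1, the smallest possible) and 1.41 to 1.91 with 1 library left out.

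With the replicate number as a replicate block, 0 genes passed in limma, Epor had a log2 change of 2.21 (adjusted p = 0.163), Socs1 was at -0.057 and Epor relative to erythroid markers at 1.40 (exact permutation p = 0.25, the smallest 3 pairs allow). Same-numbered libraries correlated at 0.16, 0.05 and -0.12 after removal of group means, and pairs of unlike number at -0.15 to 0.15. The labels give only a replicate number, and so few pairs cannot show whether same-numbered libraries were paired.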

Other observations

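Among markers of other programmes, 15 of 16 type I interferon response genes were tested, and 3 rose and none fell in limma, where 1.63% of all genes tested were called higher and 0.109% lower in knockdown libraries. Oas2, an antiviral RNA sensor gene, averaged 5.15 FPKM in knockdown and 1.34 FPKM in control libraries (log2 change 1.36 ± 0.22 SE, adjusted p = 0.0227). Oasl2 averaged 27.5 FPKM in knockdown and 4.04 FPKM in control libraries, and Rtp4 20.8 FPKM and 3.46 FPKM in the same order (adjusted p = 0.0352 each). Of 11 tested neutrophil markers, 3 fell and none rose: the granule protein genes Camp, Ngp and Ltf. Camp averaged 0.372 FPKM in knockdown and 11.6 FPKM in control libraries (limma adjusted p = 0.0132). It was under 1 FPKM in every knockdown library and passed the filter only through the control libraries, so its p-value follows that selection. The early granule genes of the same list had positive log2 changes that did not pass, with Mpo at 19.1 FPKM in knockdown and 3.42 FPKM in control libraries without overlap (limma adjusted p = 0.0830), Prtn3 at 15.8 and 2.86 FPKM (adjusted p = 0.131) and Elane at 11.8 and 2.58 FPKM (adjusted p = 0.149), knockdown first. Of 4 tested stem and progenitor markers, Kit and Sox4 rose, with Kit at 15.4 FPKM in knockdown and 4.03 FPKM in control libraries (limma adjusted p = 0.0277). Sox4 was under 1 FPKM in every control library and passed the filter only through the knockdown libraries, so its call follows that selection. Of 5 tested megakaryocyte markers, Pf4 and Itga2b rose, with Pf4 at 20.1 FPKM in knockdown and 3.19 FPKM in control libraries (limma adjusted p = 0.0311). In this list 4 of the 5 had a positive log2 change. Ppbp was lower, at 0.916 FPKM in knockdown and 2.05 FPKM in control libraries (limma adjusted p = 0.177). Tubb1, under the filter, was also lower, at 0.105 and 0.657 FPKM, knockdown first. Calls in these lists were not followed with 1 library left out.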
